A study of Mus musculus with 9 samples.

Results

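The 119 genes described here had their highest signal in sorted bone marrow stromal cells of mice in the early phase of leukemia, above that of wild-type mice and above that of mice in the medium phase. They were chosen from 18194 genes measured on Affymetrix mouse arrays. Gene signals are log2 values of the MAS5 method, in which a difference of 1 is a doubling, and each gene was read from its brightest probe set, judged by the mean of the 9 arrays. A member had a wild-type mean of at least 8, a mean at least 0.3 higher in early than in wild-type mice, and a mean at least 0.3 lower in medium than in early mice. In addition its lowest early array lay above its highest wild-type array and above its highest medium array. These values chose the members, so the early peak itself is described below and not tested.

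The groups were wild-type mice (WT, 3 arrays), recipients of leukemia whose marrow held 1 to 5% leukemic cells, the early phase (E, 3 arrays), and recipients whose marrow held 5 to 50%, the medium phase (M, 3 arrays). All mice are labelled FVB/NJ, and all cells were sorted as lacking CD45.1, a leukocyte surface protein, and Ter119, a red cell surface protein. The labels name neither the leukemia that the recipients received nor the age of the mice, and do not say whether an array holds 1 mouse or several. Replicates within a group are biological, by their labels. The series asked how the expression of stromal genes shifts as leukemia advances.

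Growing cells spend much of their energy on making ribosomes. The process begins in the nucleolus, where RNA polymerase I copies the ribosomal RNA genes and assembly factors fold the RNA with ribosomal proteins into subunits. Mitochondria keep ribosomes of their own, whose proteins are encoded in the nucleus and whose products are subunits of the respiratory chain. Both kinds of ribosome depend on a supply of nucleotides, amino acids and polyamines.

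The wild-type floor left 7226 of the 18194 genes, and 203 of these (2.81%) had the E step of at least 0.3. In 173 of the 203 every E array lay above every WT array. The M step was common by contrast, since 3570 of the 7226 genes (49.4%) were lower in M than in E by at least 0.3. Of the 173 genes, 122 had the M step, and 119 of those (68.8% of the 173) also had all E arrays above all M arrays. The members therefore come mainly from the step between E and WT, at which few genes of this brightness moved upward.

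**Figure D1:**
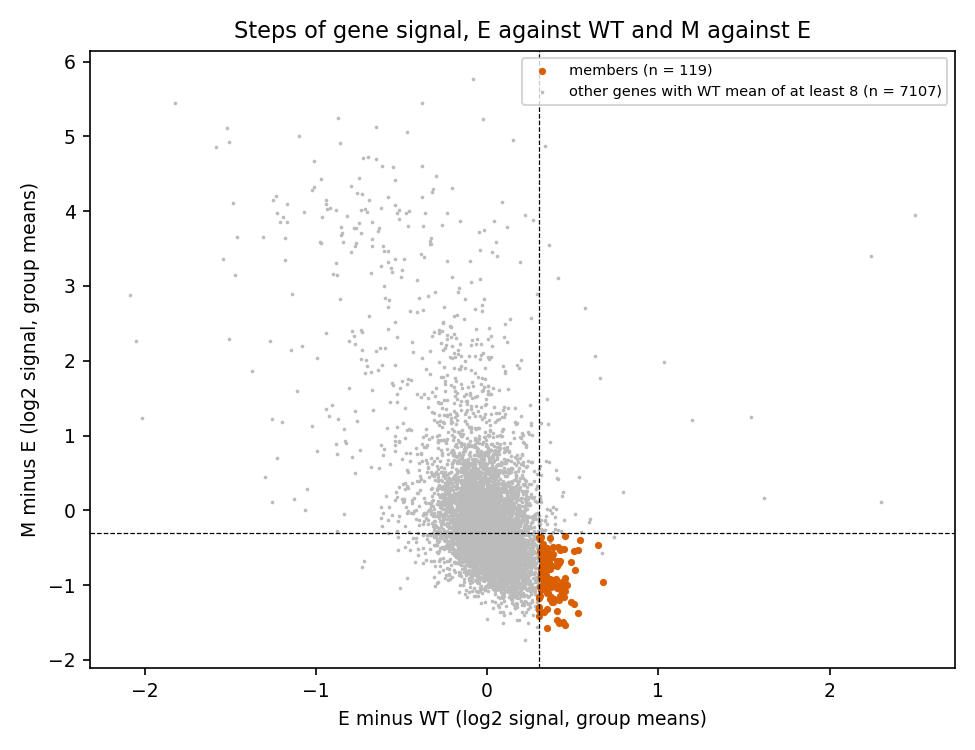
Each point is a gene with a WT mean of at least 8, placed by the difference of E minus WT (x axis, log2 signal) and of M minus E (y axis, log2 signal), and dashed lines mark 0.3 and -0.3. The 119 members fill the lower right corner next to the edge of the main cloud, with E minus WT between 0.30 and 0.68.

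The sorted cells carried signals of several cell types, and the groups differed in them. The summed signal of 4 erythroid markers lay between 14.87 and 15.05 (log2) in WT, between 14.58 and 14.65 in E and between 13.78 and 15.16 in M, so red cell precursors were prominent in all groups. The summed signal of 6 mesenchymal markers lay between 11.74 and 11.94 in WT, between 12.15 and 12.28 in E and between 15.49 and 15.82 in M. Of these 6 markers 1 rose in E against WT and 6 rose in M against E. Wider stromal gene lists went in both directions in E: the median E minus WT was -0.13 for mesenchymal niche genes, of which 0 rose and 0 fell. It was -0.35 for fibroblast matrix genes, of which 3 rose and 8 fell, and 0.35 for osteoblast genes, of which 3 rose and 1 fell. The summed signal of 6 neutrophil markers lay between 10.42 and 10.55 in WT, between 12.55 and 12.79 in E and between 16.02 and 16.36 in M. The summed signal of eosinophil markers was higher in E than in WT by 1.87 (2 of 3 rose), that of cartilage markers differed by -0.92 (3 of 3 fell) and that of macrophage markers by -0.78 (1 of 4 fell). Of the 6 neutrophil markers 5 rose in E against WT and 6 rose in M against E. The summed signal of 4 primary granule markers went the other way in E against WT, by -0.42 (2 of 4 fell). That of pan-hematopoietic markers differed by -0.40 and that of B lineage markers by 1.02, with 0 markers of either called. No marker of these summed sets was at 0, and the part of these cell types in the members' values was not tested. Poly-A control RNAs, added before labelling, had a mean of 9.11 ± 0.17 on WT arrays, of 9.10 ± 0.09 on E arrays and of 10.12 ± 0.29 on M arrays (SD, n = 3 each). M replicate 3 differed from M replicates 1 and 2 by a root mean square of 0.442 each, while those 2 differed by 0.215. In such bulk samples fewer cells of a type and less RNA per cell cannot be told apart.

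The size of the early peak was small and even across arrays. Relative to its own WT mean, the median member stood at 0.05, -0.06 and 0.02 on the WT arrays, at 0.36, 0.39 and 0.37 on the E arrays, and at -0.49, -0.48 and -0.49 on the M arrays. The arrays of a group stood close together in this median, while the order of E above WT and M was set by the choice of members. Over all 7226 genes of the same brightness the medians were 0.01, 0.02 and 0.01 on the E arrays and -0.24, -0.26 and -0.36 on the M arrays. The median member was 1.28-fold higher in E than in WT and 1.83-fold higher in E than in M. E minus WT ran from 0.30 to 0.68, with 82 of 119 members under 0.4 and 8 at 0.5 or more, while M minus E ran from -1.58 to -0.34, with 40 members at -1 or lower.

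**Figure D2:**
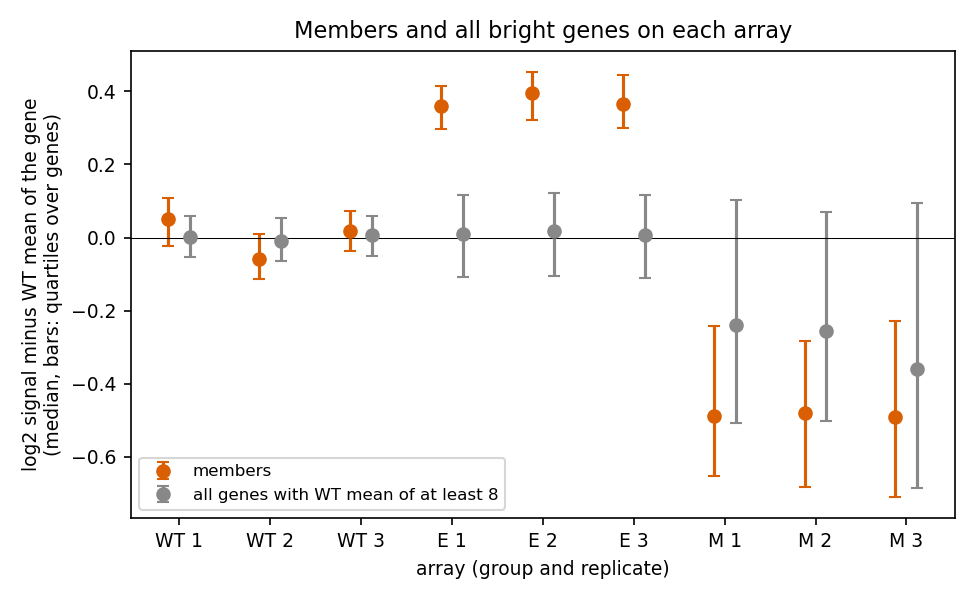
Points are medians and bars quartiles over genes of the log2 signal minus the gene's WT mean, for the 119 members (orange) and all 7226 genes with a WT mean of at least 8 (grey), on each of the 9 arrays. The members stand between 0.36 and 0.39 on the E arrays and between -0.49 and -0.48 on the M arrays.

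Members differed in how far they spread within a group. Over members the median SD came to 0.11 for WT, 0.08 for E and 0.15 for M, and 43 members had an SD over 0.2 in M but 6 in E. The rule asks for the lowest E array above every WT and M array, which favours a small spread in E. The difference in spread is therefore a description. WT means ranged from 8.06 to 13.23 with a median of 9.37, against 10.32 for all 7226 genes, and 0 members had an exact 0 on any array. The members lie at the edge of a continuous distribution: 832 further genes of this brightness had every E array above every WT and M array but a step under 0.3. Just inside the threshold were Prelid2 (E minus WT 0.3001), Unc119 (0.3012) and Wdr4 (0.3015), and just outside it Arhgap9 (0.2992), 2010204K13Rik (0.299) and Ints14 (0.2979).

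Across the 9097 brighter genes tested with limma, 0.462% were called higher in E than in WT at an adjusted p under 0.05, and 17 of the 119 members were among those. That count says nothing by itself, because the same contrast chose the members, and it ranged from 0 without E replicate 3 (92 at an unadjusted p under 0.05) to 85 without M replicate 3, and was 90 with array weights. The count was 46 after centring arrays on their medians and 0 after scaling on the control RNAs (24 at an unadjusted p under 0.05 by limma). In M against E, 43.9% of tested genes and all 119 members were called lower. The members were chosen on this contrast too, so their count is no test of it.

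The members with a part in the nucleolus were Rrp12, Tcof1, Polr1a, Cd3eap, Grwd1, Ddx56, Ebna1bp2, Mdn1, Tbl3 and Zfp593. This and the other role groups below were drawn up after the members were known, and together they cover 76 of the 119 genes in 10 groups. The 10 nucleolar genes were higher in E than in WT by 0.30 to 0.45, and their median of M minus E was -1.12, where the median of all members was -0.87. Rrp12, which takes part in the processing and export of ribosomal subunits, read 9.70, 9.71 and 9.89 in WT, 10.17, 10.20 and 10.29 in E, and 9.14, 9.21 and 9.07 in M. The 3 groups of arrays did not overlap, and M lay below WT. Tcof1, the gene of treacle, which supports transcription of ribosomal RNA genes, read 9.89, 9.76 and 9.81 in WT, 10.15, 10.36 and 10.21 in E, and 9.10, 9.40 and 8.63 in M. Its M arrays spread widely and all stayed under the WT arrays.

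RNA polymerase I itself was represented by its largest subunit, Polr1a, and by the subunit gene Cd3eap. Polr1a read 8.57, 8.85 and 8.86 in WT, 9.03, 9.07 and 9.28 in E, and 8.04, 8.08 and 7.69 in M. Cd3eap read 8.61, 8.49 and 8.46 in WT, 8.89, 8.85 and 8.96 in E, and 8.34, 8.27 and 7.83 in M. For both genes the 3 groups of arrays were fully separated. Ddx56, an RNA helicase of large subunit assembly, had 9.38, 9.22 and 9.39 in WT, 9.67, 9.74 and 9.74 in E and 8.64, 8.50 and 8.47 in M. Tbl3, a component of the complex that processes the small subunit's RNA, had the lowest M minus E of the 10 at -1.33, with 9.34, 9.46 and 9.57 in E against 9.16, 9.05 and 9.23 in WT, and 8.31, 7.84 and 8.21 in M. All 10 had M arrays that lay below their WT arrays on average.

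Of the mitochondrial ribosomal proteins, 4 were members: Mrps27 and Mrps18b of the small subunit and Mrpl4 and Mrpl34 of the large subunit. Mrps27 read 8.34, 8.18 and 8.25 in WT, 8.62, 8.53 and 8.88 in E, and 7.28, 7.40 and 6.84 in M. Mrps18b read 11.35, 11.30 and 11.45 in WT, 11.73, 11.68 and 11.67 in E, and 10.41, 10.38 and 10.20 in M. In both genes M minus E (-1.50 and -1.36) was far larger in size than E minus WT (0.42 and 0.33), and no array of one group reached another group. Mrpl34 read 12.07, 12.02 and 12.06 in WT, 12.31, 12.37 and 12.37 in E, and 11.17, 11.22 and 10.79 in M. Mrpl4 was at 10.57, 10.58 and 10.82 in E, against 10.18, 10.28 and 10.42 in WT, and at 9.70, 9.71 and 9.82 in M.

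Other members serve the same organelle. Eral1, which chaperones the RNA of the small mitochondrial subunit, had 9.76, 9.75 and 9.67 in E against 9.41, 9.44 and 9.20 in WT, and 8.36, 8.29 and 8.85 in M. Noa1, a GTPase of mitochondrial ribosome assembly, Fastkd3, which acts on mitochondrial RNA, and Top1mt, the mitochondrial DNA topoisomerase, were higher in E than in WT by 0.35, 0.41 and 0.35. Atp5md, a small subunit of the ATP synthase complex, read 12.80, 13.35 and 13.21 in WT, 13.53, 13.58 and 13.61 in E, and 12.08, 11.64 and 12.39 in M. Its E arrays lay close together (SD 0.04), while those of WT and M spread more widely (SD 0.29 and 0.38). Ndufs5, a subunit of complex I, read 8.74, 8.93 and 9.03 in E against 8.38, 8.65 and 8.39 in WT, and 8.07, 8.56 and 8.46 in M, so that its WT and M arrays overlapped. Coa7, an assembly factor of complex IV, was at 10.47, 10.21 and 10.13 in E, 10.01, 9.74 and 9.71 in WT and 9.23, 8.90 and 9.19 in M.

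Enzymes that supply building blocks formed the most numerous role group, with 11 members. Cad, which carries out the opening steps of pyrimidine synthesis, read 11.45, 11.35 and 11.49 in WT, 11.82, 11.88 and 11.87 in E, and 10.80, 10.82 and 10.52 in M. Phgdh and Psph are enzymes of serine synthesis. Phgdh read 11.96, 11.78 and 11.98 in WT, 12.36, 12.36 and 12.34 in E, and 11.25, 11.14 and 11.81 in M, where M replicate 3 lay within the WT range. Psph read 11.09, 10.85 and 10.93 in E against 10.64, 10.46 and 10.61 in WT, and its M arrays (10.39, 10.36 and 10.64) overlapped with WT. Srm, the spermidine synthase, was at 12.77, 12.74 and 12.67 in E against 12.53, 12.27 and 12.41 in WT, and at 11.86, 11.94 and 11.64 in M.

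The 11 differed widely in their step to M, from -1.58 to -0.40. Nme4, a mitochondrial nucleoside diphosphate kinase, read 8.95, 9.08 and 9.14 in WT, 9.23, 9.66 and 9.32 in E, and 7.88, 7.96 and 7.64 in M. Its M minus E of -1.58 was the lowest of all 119 members. Adi1, an enzyme of methionine salvage, had the smallest step of the 11, with 9.85, 9.76 and 9.74 in E, 9.28, 9.44 and 9.02 in WT, and 9.36, 9.30 and 9.50 in M. Its M arrays overlapped with those of WT, as in Phgdh, Psph and Ada. The others were Fpgs, which adds glutamates to folate, Dctd and Ada, deaminases of nucleotide metabolism, Nme6 and Nadk, which makes NADP, with E minus WT between 0.34 and 0.39.

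Members of transcription and RNA processing numbered 9. Snrpf, a core protein of the spliceosomal particles, read 12.80, 12.72 and 12.62 in WT, 13.33, 12.99 and 13.35 in E, and 11.78, 11.83 and 12.32 in M. Gtf3c1, the largest subunit of the factor that recruits RNA polymerase III, read 9.20, 9.07 and 9.31 in WT, 9.55, 9.64 and 9.76 in E, and 8.66, 8.73 and 8.86 in M. Both genes had 3 separate levels. Polr2e, a subunit shared by the nuclear RNA polymerases, was at 11.54, 11.53 and 11.61 in E against 11.30, 11.12 and 11.29 in WT, and at 10.48, 10.64 and 10.60 in M. Hnrnpul1, an RNA-binding protein, was at 12.30, 12.49 and 12.33 in E against 12.08, 12.05 and 12.05 in WT, and at 11.63, 11.74 and 11.86 in M.

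In translation, Rpl37 was the single cytosolic ribosomal protein among the members. It read 12.04, 12.03 and 11.83 in WT, 12.22, 12.44 and 12.41 in E, and 10.75, 10.81 and 11.92 in M, and M replicate 3 stood far above the other M arrays, within the WT range. Vars, the valyl-tRNA synthetase, had 9.62, 9.55 and 9.48 in E, against 9.31, 9.31 and 8.74 in WT, and 8.60, 8.46 and 8.40 in M. Wdr4, a partner of the enzyme that methylates transfer RNA, had 10, 10.01 and 10.05 in E, against 9.78, 9.54 and 9.85 in WT, and 8.64, 8.88 and 8.29 in M. Dctn6, a dynactin subunit, shared the pattern of Rpl37 in M on its brightest probe set. It read 10.58, 10.79 and 12.46 there, against 12.44, 12.35 and 12.20 in WT, with 12.65, 12.72 and 12.85 in E. A further probe set of Dctn6 did not share it, with 10.44, 10.45 and 10.63 in M. That probe set read 11.03, 10.985 and 10.99 in WT, and its E minus WT was 0.13.

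Chromatin genes gave 7 members. L3mbtl2, a subunit of a Polycomb repressor complex, read 8.61, 8.40 and 8.35 in WT, 9.07, 8.95 and 8.94 in E, and 7.29, 7.498 and 8.03 in M. Hdac7, a histone deacetylase, read 8.21, 8.43 and 8.40 in WT, 8.81, 8.92 and 8.84 in E, and 8.39, 8.26 and 8.29 in M, so that M and WT arrays overlapped. Smyd5, of the SET and MYND domain family, read 8.76, 8.42 and 8.40 in WT, 8.96, 9.01 and 8.96 in E, and 8.0002, 7.81 and 8.03 in M. Prmt5, which methylates arginines of histones and splicing proteins, and its partner Coprs were both members, with E minus WT of 0.33 and 0.31. They differed in M: Prmt5 had 9.89, 9.77 and 9.78 there against 10.33, 10.27 and 10.47 in WT, while Coprs had 8.45, 8.20 and 8.41 against 8.50, 8.37 and 8.41.

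The greatest peak of all belonged to Haus7, a subunit of the augmin complex that makes microtubules branch in the spindle. It read 9.23, 9.23 and 9.32 in WT, 9.59, 9.95 and 10.29 in E, and 9.18, 9.07 and 8.71 in M. The E arrays had the widest spread of all members (SD 0.35), but each lay above every WT and M array. Lemd2, a protein of the inner nuclear membrane, read 8.43, 8.24 and 8.09 in WT, 8.70, 8.83 and 8.83 in E, and 8.46, 8.53 and 7.79 in M. Fbxl6, an F-box protein, read 8.45, 8.23 and 8.27 in WT, 8.82, 8.84 and 8.84 in E, and 8.13, 7.92 and 8.06 in M. Retsat, which saturates retinol, read 8.15, 8.11 and 8.25 in WT, 8.70, 8.81 and 8.47 in E, and 8.004, 7.92 and 8.01 in M.

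The rest of the 15 greatest peaks was mixed in role. Thop1, a peptidase, read 8.76, 8.59 and 8.87 in WT, 9.24, 9.11 and 9.32 in E, and 8.11, 8.11 and 7.78 in M. Ttc27 read 9.36, 9.12 and 9.22 in WT, 9.82, 9.73 and 9.55 in E, and 8.71, 8.60 and 8.78 in M. The uncharacterised 9430015G10Rik read 8.14, 7.76 and 8.37 in WT, 8.76, 8.78 and 8.68 in E, and 8.56, 8.21 and 8.04 in M, so M overlapped with WT. Ssr2, part of the complex that receives new proteins at the endoplasmic reticulum, read 11.21, 11.41 and 11.19 in WT, 11.78, 11.57 and 11.80 in E, and 11.25, 11.26 and 11.11 in M, where M and WT arrays overlapped.

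**Figure D3:**
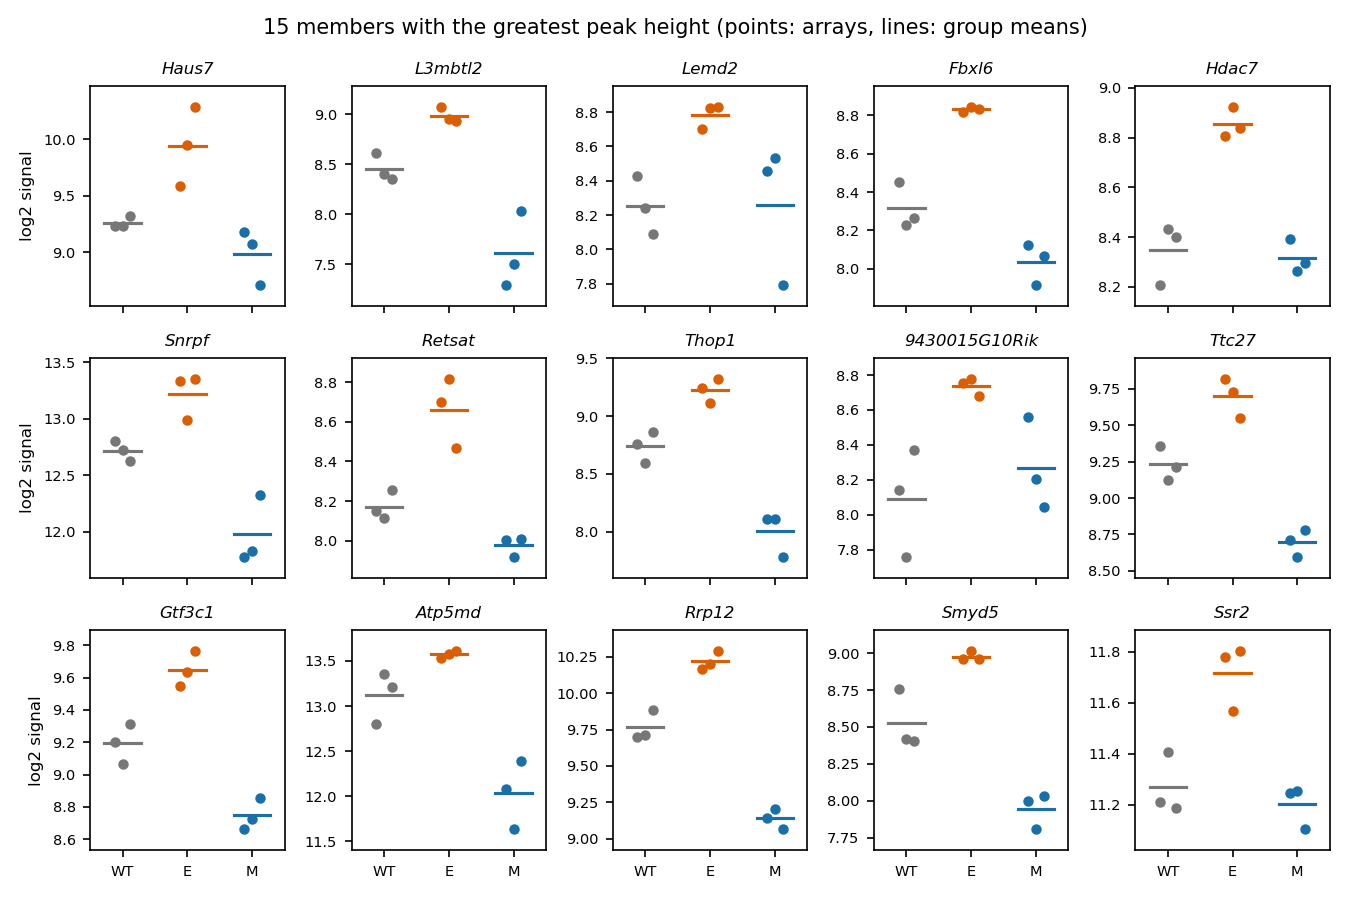
Log2 signal of the 15 members with the greatest peak height (the smaller of E minus WT and E minus M), 1 panel a gene with its own y axis; points are arrays, left to right replicates 1 to 3, and lines are group means. In every panel the 3 E arrays lie above the WT and M arrays, and Haus7 shows the widest spread among E arrays, 9.59 to 10.29.

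Members of growth and signalling numbered 9. Akt1, a kinase downstream of insulin and growth factor receptors, read 9.60, 9.47 and 9.47 in WT, 9.89, 9.94 and 9.80 in E, and 9.61, 9.39 and 9.51 in M. Cdk6, a kinase that drives cells into the cycle, read 12.68, 12.62 and 12.68 in WT, 12.85, 13.14 and 12.96 in E, and 12.24, 12.05 and 12.08 in M. M overlapped with WT in Akt1, while all M arrays lay below WT in Cdk6. Csk, a kinase that restrains Src family kinases, Nf2, the gene of merlin, and Smo, the signal transducer of the hedgehog pathway, were also members, as was Eng, a coreceptor of the TGF-beta family known from endothelium. Ldha, the muscle-type lactate dehydrogenase, was also a member, at 13.52, 13.55 and 13.53 in E against 13.25, 13.13 and 13.32 in WT, and at 13.20, 13.14 and 13.17 in M.

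Where the members stood in M relative to WT was not set by a threshold of the rule, although the same arrays entered it. M was below WT in 115 of 119 members (96.6%) and in 71.2% of the 7226 genes of the same brightness. The median of M minus WT was -0.51 in the members, a 1.43-fold lower signal in M, and -0.29 in the 7226 genes. In limma's fit of M against WT, 86 members fell, 0 rose and 33 did not pass, while of all 9097 genes tested 43.5% fell and 25.3% rose. The count of members called depended on scaling: it was 105 after quantile normalization, 119 after median centring, 119 after scaling on control RNAs and 60 of 115 with the mean of a gene's probe sets. All M arrays were below all WT arrays in 87 members (54.8% of the 7226 genes, 45.5% of tested genes), all above in 1, Gaa (26.5% of tested genes), and they overlapped in 31. Since the rule asks for E above M and WT at least 8, a low M is favoured among members, and the difference in shares is a description.

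**Figure D4:**
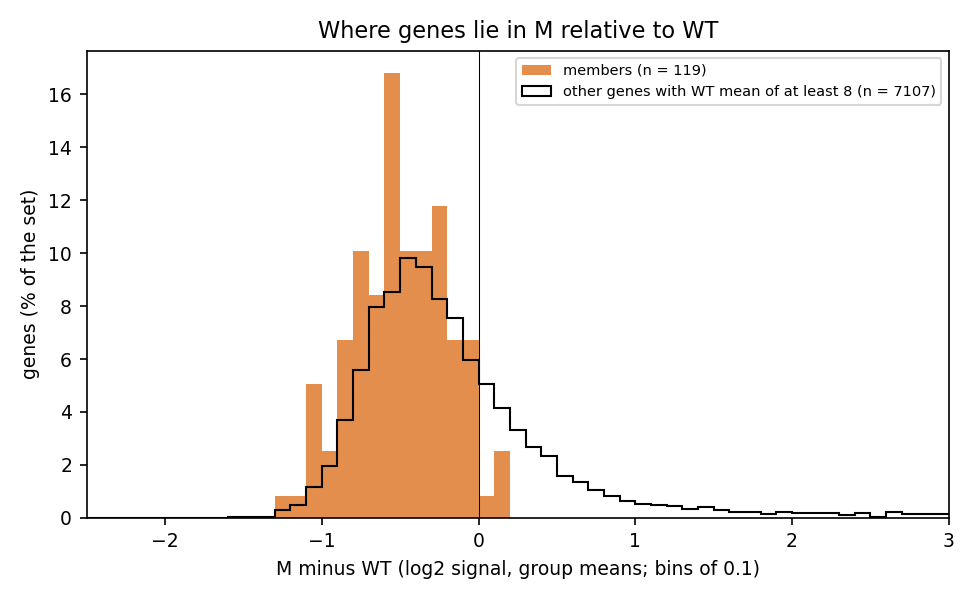
Share of genes (y axis, %) by M minus WT (x axis, log2 signal, bins of 0.1) for the 119 members (filled) and the 7107 other genes with a WT mean of at least 8 (line); 92 of those other genes lie beyond the right edge at 3. Of the members, 115 lie below 0.

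The members farthest below WT in M were Nme4, Wdr4, Mrps27, Atp5md and Dctn6. Nme4 fell by 1.23 (limma SE 0.14, adjusted p = 1.69e-05), Wdr4 by 1.12 (adjusted p = 3.98e-05), Mrps27 by 1.08 (adjusted p = 0.000177) and Atp5md by 1.08 (adjusted p = 0.000215). Dctn6 fell by 1.05 (adjusted p = 0.0247) with a call that ended without WT replicates 1 or 2 or M replicates 1 or 2, or with robust estimation (adjusted p up to 0.096). Mrps18b, Mrpl34 and Rrp12 fell too (adjusted p = 6.30e-07, 7.85e-06 and 8.43e-05 by limma). So did L3mbtl2, Snrpf, Thop1, Smyd5, Ttc27 and Gtf3c1, with limma adjusted p between 0.000456 and 0.00304. The falls of Thop1 and Smyd5 were lost when all probe sets of a gene were averaged (adjusted p = 0.0852 and 0.116). Fbxl6 fell by 0.28 (adjusted p = 0.0494), and this call was lost under 12 of 20 alternatives (adjusted p up to 0.17).

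The members farthest above were 9430015G10Rik, Adi1, Gaa, Lemd2 and Akt1, and none of these passed. M minus WT was 0.18 for 9430015G10Rik (limma adjusted p = 0.387), 0.14 for Adi1 (0.288) and 0.11 for Gaa, the lysosomal acid glucosidase (0.345). It was 0.01 for Lemd2 (0.971) and -0.01 for Akt1 (0.928). The first 4 were below WT after quantile normalization without passing, and all 4 passed as lower than WT after median centring (limma adjusted p from 9e-05 to 0.0154) and after scaling on control RNAs (limma adjusted p from 5.23e-05 to 0.000879). Haus7 (-0.27, adjusted p = 0.171), Hdac7 (-0.03, adjusted p = 0.825), Retsat (-0.19, adjusted p = 0.19), Ssr2 (-0.07, adjusted p = 0.525) and Ndufs5 (-0.11, adjusted p = 0.543) did not pass either.

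Of all 119 members 86 fell in M against WT by limma, as did 43.5% of the 9097 genes tested. By role group, of the 10 nucleolar members all 10 fell, with a median of -0.74. Of the 9 members of transcription and RNA processing all 9 fell, with a median of -0.54. Of 8 members of mitochondrial gene expression 7 fell (median -0.70), as did all 4 of translation and transfer RNA (median -0.74) and 8 of 11 enzymes of nucleotide, folate and amino acid synthesis (median -0.50). Of chromatin and histone modification 4 of 7 fell (median -0.54), and of respiration and other mitochondrial genes 4 of 6 (median -0.43). Of lipid and sugar metabolism 2 of 6 fell (median -0.07), and of growth and signalling 4 of 9 (median -0.35). Of protein folding, processing and turnover 3 of 6 fell (median -0.26). Whether these groups differed was not tested, since they were formed after the members were known. After median centring or scaling on control RNAs every member was called lower, in all of these groups.

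Wider pathways were followed with gene lists, which were chosen with earlier results of these data known. Counts of genes highest in E used the list genes with a WT mean of at least 8. Among the 77 mitochondrial ribosomal proteins tested, 71 had their highest group mean in E (92.2%), where 42.9% of the 7226 genes with a WT mean of at least 8 did. The same held for 36 of 40 genes of mitochondrial import and the TCA cycle (90.0%), 21 of 24 of the nucleolus and ribosome assembly (87.5%) and 74 of 88 of the respiratory chain and ATP synthase (84.1%). The shifts behind this were small: median E minus WT was 0.13 for mitochondrial ribosomal proteins, 0.16 for the nucleolar list and 0.09 for the respiratory chain, against 0.01 over all genes tested. These values moved with scaling: after median centring they were 0.25, 0.27 and 0.21, with 0.13 over the 7226 genes, and the respiratory chain had 0.05 after quantile normalization. The share of the 7226 genes highest in E was itself 75.7% after median centring and 53.7% after scaling on control RNAs, while mitochondrial ribosomal proteins stood at 98.7% and 94.8%. With limma, 0 genes of these lists were called higher in E. An unadjusted p under 0.05 in that direction was found for 17 of 77 mitochondrial ribosomal and 8 of 40 import and TCA cycle genes. The same was found for 7 of 24 nucleolar and 18 of 89 respiratory chain genes, and for 579 of all 9097 genes tested. These lists include members chosen on this contrast: 4 mitochondrial ribosomal, 2 respiratory chain and 1 nucleolar gene. The list of mitochondrial import and the TCA cycle held 0 members.

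In M against WT 75 of 77 mitochondrial ribosomal proteins fell and 1 rose (median -0.73), 23 of 24 nucleolar genes fell and 0 rose (median -0.58), and 83 of 89 respiratory chain genes fell and 0 rose (median -0.49). Over the 9097 genes tested 43.5% fell and 25.3% rose, with a median of -0.19. The cytosolic ribosomal proteins were at their highest in E in 38 of 44 genes, but in 15 of 44 after quantile normalization, when their median E minus WT was -0.01 in place of 0.05. In M 13 of 45 fell and 1 rose (median -0.10). Proteasome subunits (32 of 41), aminoacyl tRNA synthetases and translation factors (53 of 71), splicing and hnRNP genes (43 of 59) and genes of the transcription machinery (42 of 71) were highest in E in the numbers given. The transcription count was 35 of 71 without WT replicate 2, and the splicing count was 30 of 59 with the mean of probe sets.

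Lists of dividing and of specialised cells were read in the same way. Of 29 mitosis genes 2 were highest in E and of 35 DNA replication genes 13, with medians of E minus WT of -0.17 and -0.02. The DNA replication share (37.1%) was near that of the 7226 genes (42.9%). After median centring 10 of 29 mitosis, 29 of 35 DNA replication and 19 of 36 erythroid genes were highest in E. These were 34.5%, 82.9% and 52.8%, where 75.7% of the 7226 genes were highest in E. The median of the DNA replication list was then 0.09. Of 36 erythroid genes 10 were highest in E, and their 1 member was Tspo2. It read 9.96, 10.10 and 9.88 in E against 9.38, 9.75 and 9.88 in WT, and 8.96, 9.14 and 8.76 in M. No gene of the neutrophil, primary granule, monocyte and macrophage, fibroblast matrix or chondrocyte lists was a member. Among their genes with a WT mean of at least 8 (6, 6, 5, 17 and 12), 0 were highest in E. The eosinophil, B lineage and mesenchymal niche lists had 2 such genes each, too few to read, and of 4 endothelial genes 2 were highest in E, with Eng a member. In all, 18 members belonged to a list and 101 to none.

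**Figure D5:**
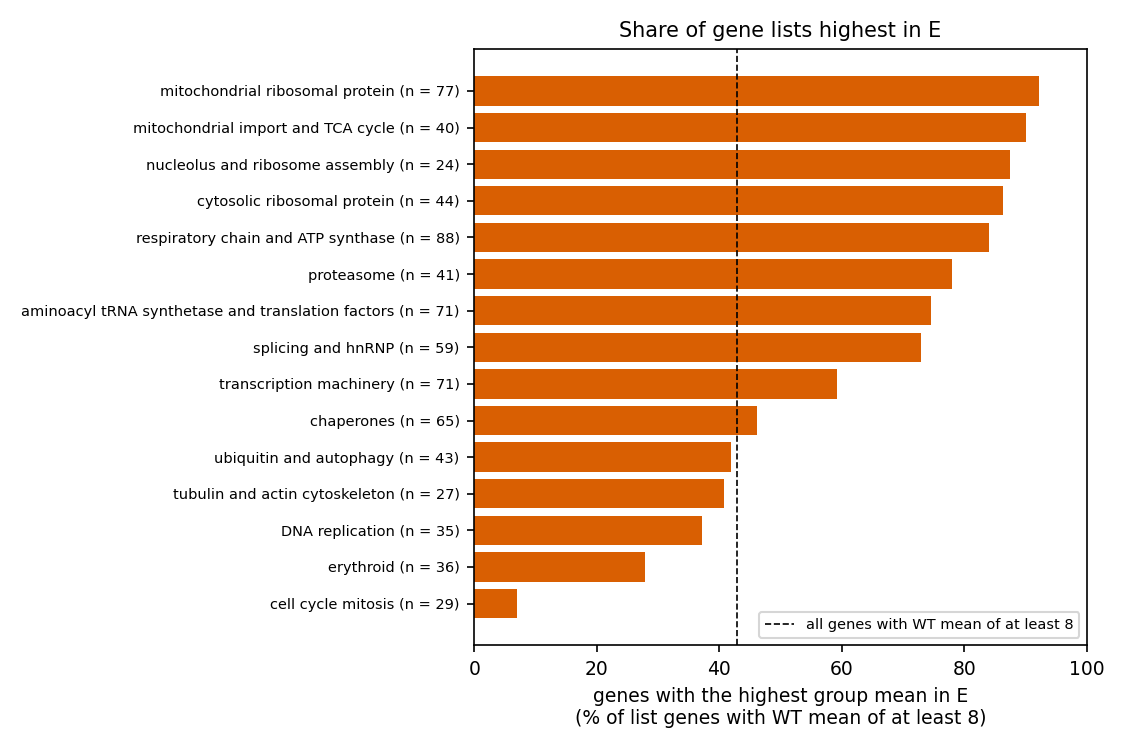
Bars give the share of genes whose group mean was highest in E (x axis, %) in each gene list with at least 20 genes of WT mean 8 or more, with the number of such genes in the label; the dashed line at 42.9% is the share over all 7226 genes. Mitochondrial ribosomal proteins (92.2%) are at the top and mitosis genes (6.90%) at the bottom.

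Further probe sets of the member genes gave a readout that the rule had not used, though from the same RNA. There were 102 for 56 of the genes, and 29 of them, for 22 genes, had a WT mean of at least 8. Of these 29, 25 were highest in E (86.2%), against 40.0% of 4132 further probe sets of other genes of that brightness. In 17 of the 29 (58.6%) all E arrays were above all WT and M arrays, against 10.8%. Both steps of at least 0.3 were met by 8 of the 29, against 96 of the 4132. The median E minus WT of the 29 was 0.24 and their median M minus E was -0.63. Phgdh had 3 of them, with E minus WT of 0.67, 0.46 and 0.55, and the further probe set of Cad had 0.37. Those that were not highest in E belonged to 1110008P14Rik, Eng, Fubp1 and Tex9, with E minus WT of -0.0005, -0.0023, -0.39 and -0.19. Over all 102, dim ones included, 52 were highest in E, and dim further probe sets turned the sign of E minus WT of Akt1 (-0.46) and Prelid2 (-0.21) when all probe sets of a gene were averaged.

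The promoters of the members were read from RefSeq for what they share in sequence (GRCm38.p6, 250 bases before to 50 after each start). Windows were found for 100 of the 119 genes, 120 windows in all. The E-box CACGTG holds the letters bound by Myc with Max and by other factors of their class. It was in 12.5% of member windows, 11.2% of windows of other genes with a WT mean of at least 8 and 7.15% of all 32851 windows used. CCAAT, bound by NF-Y, was in 44.2%, 37.9% and 37.4% of these sets, GGGCGG, of the Sp factors, in 55.8%, 65.6% and 35.7%, and CCGGAAGT, of the ETS factors, in 8.33%, 10.1% and 3.89%. Each was searched on both strands, and the letters were allowed to overlap. The NRF1 motif was in 1.67%, 2.56% and 0.971%, and TATAAA in 7.5%, 6.52% and 13.6%. No difference between these shares was tested. The windows of Cd3eap and Ldha, the 2 members with 2 E-boxes in a window, are shown with the E-boxes in capitals, each on the strand of its gene from 5′ to 3′.
Cd3eap, chr7:19359434-19359733, minus strand: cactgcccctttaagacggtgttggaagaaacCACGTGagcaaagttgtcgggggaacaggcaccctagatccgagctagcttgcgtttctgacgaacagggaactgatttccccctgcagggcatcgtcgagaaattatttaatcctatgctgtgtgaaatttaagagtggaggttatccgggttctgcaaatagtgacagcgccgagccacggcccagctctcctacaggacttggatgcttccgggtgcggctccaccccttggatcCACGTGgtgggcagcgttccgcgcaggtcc
Ldha, chr7:46845554-46845853, plus strand: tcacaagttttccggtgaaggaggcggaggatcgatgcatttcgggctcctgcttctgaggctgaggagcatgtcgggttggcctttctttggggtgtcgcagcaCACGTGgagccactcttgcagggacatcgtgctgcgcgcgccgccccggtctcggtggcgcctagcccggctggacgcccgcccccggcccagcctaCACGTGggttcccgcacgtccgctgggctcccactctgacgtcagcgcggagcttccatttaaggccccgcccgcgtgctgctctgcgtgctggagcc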

How the data were processed

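Gene expression was measured on 9 Affymetrix arrays, 3 per group. The deposited values are log2 signals that the authors made with MAS5, per the submitters' processing notes, and the MAS5 version is not given in the sources used here. Values were used as deposited, with no further normalization, and the number of arrays limits the precision. Of 45101 probe sets, 34958 had 1 gene symbol in the platform annotation, 932 had several and 9211 were not listed. The probe set with the highest mean stood for each of 18194 genes, and all 119 members matched a RefSeq gene.

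The 9097 genes with a mean log2 signal of at least 6.83 were fitted with limma 3.58.1 in R 4.3.3 over all 9 arrays, with an intensity trend and Benjamini-Hochberg adjustment (threshold 0.05). The procedure was tested on simulated data. All 119 members passed the filter. Alternatives were other scalings (quantile normalization, median centring, poly-A control RNAs), the mean of a gene's probe sets, pseudocounts, filters, array weights, a replicate block and leaving out each array.

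The members and gene lists were chosen with earlier results of these data known. Named by rule were the 15 members with the greatest peak height (the smaller of E minus WT and E minus M), up to 4 per gene list with several members, the 5 farthest above and 5 farthest below WT in M, and 3 genes on each side of the threshold. All other genes named were chosen after their values were seen. Array numbers did not pair the samples: same-numbered arrays had correlations of their deviations from the group means between -0.098 and 0.084 over 9 pairs.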

Additional observations from a re-analysis of the deposited data

Results flagged for a closer look

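A few probe sets that the description of the members did not use met the same thresholds. Among 661 probe sets with a WT mean of at least 8 that the annotation does not list, 8 met the thresholds set for the members, and among 399 such probe sets with several gene symbols, 9 did. Of the 7226 genes with such a WT mean, 119 did. The probe sets are counted here because they met the thresholds without a single gene name, and none of them was tested.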

How the results depend on the processing

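The number of members depended on scaling and thresholds: it was 649 after median centring (all 119 among them), 6 with steps of at least 0.5, 193 with no floor on the WT mean, and 102 to 165 when 1 array was left out (83 to 119 shared). Scaling on control RNAs gave 114 with 73 shared, and the mean of probe sets gave 93 with 69 shared. The members' median E minus WT was 0.48 after median centring and 0.34 to 0.40 with 1 array left out. Their median M minus E and M minus WT were -1.08 and -0.70 after quantile normalization, -1.70 and -1.23 after median centring, -1.89 and -1.53 after scaling on control RNAs, -0.71 and -0.41 with the mean of probe sets, and -0.81 and -0.45 with a pseudocount of 64, and with 1 array left out they ran from -0.89 to -0.83 and from -0.54 to -0.47. Genes called in E against WT numbered 192, but 118 after quantile normalization, 99 with the mean of probe sets, 85 with a filter that kept fewer, brighter genes, 848 with array weights, and 97 (without WT replicate 3) to 841 (without M replicate 3). With that narrower filter 3485 genes were called in M against E and 3466 in M against WT, where 36 of 41 members were called; with 1 array left out the counts ran from 5820 to 6396, from 5739 to 6264 and, for members in M against WT, from 79 to 91. The share of further probe sets highest in E was 51%, and 86.2% with a WT mean of at least 8. With the replicate number as a block, 153 genes were called in E against WT, 6248 in M against E and 6100 in M against WT, including 84 members in M against WT, and 2 members in E against WT. M minus WT changed sign for genes near 0. After quantile normalization it was -0.40 for Lemd2, -0.23 for 9430015G10Rik, -0.027 for Adi1, -0.038 for Gaa and 0.037 for Ssr2. After median centring it was -0.71 for Lemd2, -0.54 for 9430015G10Rik, -0.57 for Adi1 and -0.60 for Gaa, and on control RNAs -1.002, -0.83, -0.87 and -0.90 for the same genes. With the mean of probe sets it was 0.49 for Hdac7 and -0.13 for Adi1, while Akt1 had E minus WT of -0.46 and M minus E of 0.11, and Prelid2 E minus WT of -0.21. With 1 array left out it ran from -0.13 to 0.24 for Lemd2, from -0.099 to 0.013 for Hdac7, from -0.11 to 0.0033 for Ssr2, from -0.063 to 0.046 for Akt1 and from -0.20 to 0.038 for Ndufs5. The causes were not tested.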
